A study of Equus caballus with 9 samples.

Results

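Genes of xenobiotic, cysteine and redox metabolism were followed across cultured equine cells: EPHX1, CDO1, NQO1, HMOX1, GCLC, GCLM, TXNRD1, SOD2, GPX3 and CAT. They are 10 of the 16661 genes that the platform annotation names singly on the array, which holds 30559 probe sets, and each of the 10 was read by 1 probe set. EPHX1 and CDO1 were selected on their measured differences in these arrays, so their values are given as a description without a test. The other 8 genes were chosen by function, with results of these data already known, and their tests come from a fit over the whole array.

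The series holds 9 Affymetrix arrays in 3 groups of 3. EA-ADSC cells were grown from blood mononuclear cells of 3 horses bled 2 h after electroacupuncture, AD-MSC cells from tailhead fat of untreated control horses, and BM-MSC cells from bone marrow of 3 untreated horses. All 3 kinds of cell were separated on Ficoll-Paque and cultured on plastic in 15% fetal bovine serum for 96 h, and 100 ng of total RNA was amplified per array. The source tissue, the treatment and the horses change together between EA-ADSC and each other group, so their parts in a difference cannot be told apart. Between AD-MSC and BM-MSC the source tissue changes, and whether the horses do is not labelled. The AD-MSC samples were numbered apart from the other groups, which follow each other. The labels do not say whether they were processed at another time, which could not be told apart from the source. The fat samples carry no horse label, and p-values measure the spread between these arrays.

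Microsomal epoxide hydrolase, encoded by EPHX1, opens reactive epoxides to dihydrodiols, and cysteine dioxygenase, encoded by CDO1, oxidises cysteine to its sulfinate, the first step towards taurine and sulfate. NQO1, HMOX1, GCLC, GCLM and TXNRD1 are textbook targets of the transcription factor NRF2. KEAP1 marks NRF2 for degradation in unstressed cells, and NRF2 released from KEAP1 by oxidants or electrophiles pairs with small MAF proteins at antioxidant response elements. SOD2, CAT and GPX3 form the peroxide line: mitochondrial superoxide dismutase makes hydrogen peroxide from superoxide, peroxisomal catalase splits it, and the secreted selenoenzyme glutathione peroxidase 3 reduces it with glutathione.

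The deposited values are normalized log2 intensities, where 1 unit is a doubling, and the median over all probe sets and arrays was 4.62. All 12 measured mesenchymal stromal markers lay above that median in each group, with array means of 8.66 to 8.94 in EA-ADSC, 7.78 to 7.92 in AD-MSC and 8.59 to 8.73 in BM-MSC. Of 11 measured pan-leukocyte markers 5 lay above the median in EA-ADSC, 4 in AD-MSC and 7 in BM-MSC, with array means of 4.49 to 4.75, 4.12 to 4.24 and 4.54 to 5.35 in that order. The leukocyte phosphatase gene PTPRC (CD45) averaged 3.10 in EA-ADSC, 3.14 in AD-MSC and 3.97 in BM-MSC, below the median, while CORO1A, an actin-binding protein of leukocytes, averaged 5.29, 5.38 and 6.18. ARHGDIB of the same list went the other way, at 10.26 in EA-ADSC, 5.17 in AD-MSC and 6.74 in BM-MSC. Of the 11 pan-leukocyte markers 1 had a higher mean in EA-ADSC than in BM-MSC, and 6 had a higher mean than in AD-MSC. The 17 measured monocyte and macrophage markers averaged 4.17 to 4.34 in EA-ADSC, 4.46 to 4.65 in AD-MSC and 4.70 to 5.60 in BM-MSC, with the highest value in BM-MSC replicate 1. The 9 measured adipocyte markers averaged 4.62 to 4.71 in EA-ADSC, 5.26 to 6.20 in AD-MSC and 4.81 to 5.06 in BM-MSC, and 3, 6 and 4 of the 9 lay above the median. Among them the fatty acid carrier gene FABP4 averaged 2.98 in EA-ADSC, 8.56 in AD-MSC and 5.54 in BM-MSC and the adipogenic regulator PPARG 3.76, 6.22 and 5.21, while the adipokine gene ADIPOQ stayed below the median at 4.14, 4.57 and 4.06. LPL, at 5.49, 4.59 and 4.34, and LEP, at 4.31, 3.93 and 3.95, were highest in EA-ADSC. Of the 9 markers 4 had a higher mean in EA-ADSC than in AD-MSC. The parts of these cells in the differences below were not tested. In such bulk samples fewer cells of a type and less RNA per cell cannot be told apart.

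One array stood apart in these genes. AD-MSC replicate 1 was the highest of its group in 10 of 10 genes, which 36.1% of all probe sets showed, and the highest of all 9 arrays in 9 of 10, CDO1 being the exception, which 16.1% of all probe sets showed. For the 10 genes, group differences that involve AD-MSC are therefore given with and without it.

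**Figure D1:**
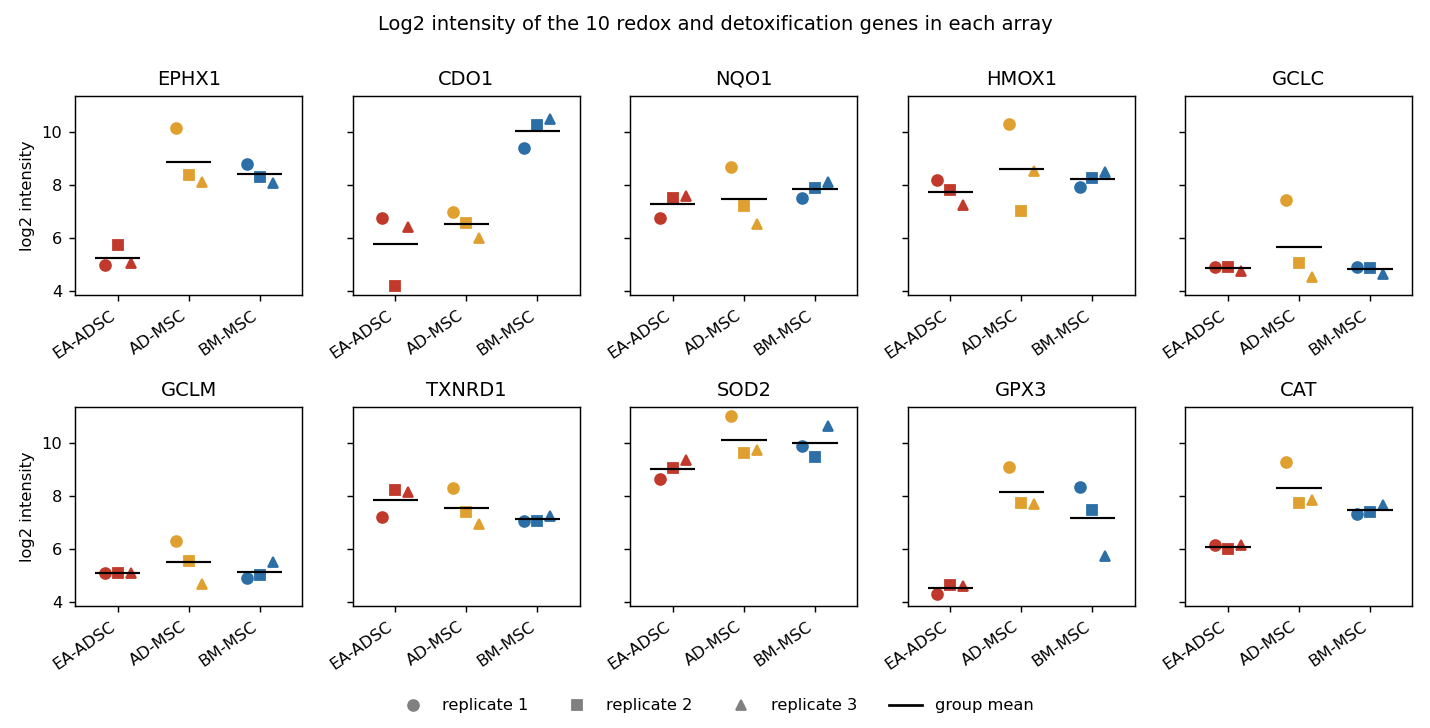
Deposited log2 intensity of each of the 10 genes (y axis) in the EA-ADSC, AD-MSC and BM-MSC arrays (x axis). Symbols mark the replicate number and the black line the mean of 3 arrays. EPHX1, GPX3 and CAT lie lower in all EA-ADSC arrays than in any other array, CDO1 lies highest in the 3 BM-MSC arrays, and AD-MSC replicate 1 is the highest point for 9 of the 10 genes.

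EPHX1 and CDO1 had different patterns. EPHX1 (probe set 15074204) was at 4.99, 5.73 and 5.06 in the EA-ADSC arrays, 10.12, 8.37 and 8.10 in the AD-MSC arrays and 8.79, 8.31 and 8.07 in the BM-MSC arrays. The EA-ADSC values lay apart from both other groups, and the ranges of AD-MSC and BM-MSC overlapped. Its means were 5.26 ± 0.41 in EA-ADSC, 8.86 ± 1.10 in AD-MSC and 8.39 ± 0.36 in BM-MSC (SD, n = 3 each). EPHX1 was 12.1-fold lower in EA-ADSC than in AD-MSC (log2 difference -3.60) and 8.74-fold lower than in BM-MSC (log2 difference -3.13). In order of level AD-MSC came first and BM-MSC second, but their log2 difference of 0.47 was within the spread of the AD-MSC arrays. Without AD-MSC replicate 1 this order turned round, with a difference of -0.16, while that between EA-ADSC and AD-MSC was -2.97.

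CDO1 (probe set 14983389) was at 6.74, 4.19 and 6.40 in EA-ADSC, 6.99, 6.56 and 5.99 in AD-MSC and 9.38, 10.25 and 10.47 in BM-MSC. Here the BM-MSC arrays stood above the other 6, and the EA-ADSC and AD-MSC ranges overlapped. The means were 5.78 ± 1.38 in EA-ADSC, 6.51 ± 0.50 in AD-MSC and 10.03 ± 0.58 in BM-MSC (SD, n = 3 each). CDO1 was 19.0-fold lower in EA-ADSC (log2 difference -4.25) and 11.4-fold lower in AD-MSC (log2 difference -3.52) than in BM-MSC. EA-ADSC replicate 2, at 4.19, lay under the median of 4.62, and without it the difference between EA-ADSC and BM-MSC was -3.46. The 1.66-fold lower mean in EA-ADSC than in AD-MSC (log2 difference -0.73) was smaller than the spread of the EA-ADSC arrays. It rested on EA-ADSC replicate 2, without which the difference was 0.06. The log2 difference without AD-MSC replicate 1 was -0.50 between EA-ADSC and AD-MSC and -3.75 between AD-MSC and BM-MSC. Both genes were thus low in EA-ADSC relative to BM-MSC, but AD-MSC grouped with BM-MSC for EPHX1 and with EA-ADSC for CDO1.

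Over the whole array limma called 249 of 30559 probe sets, or 0.815%, between EA-ADSC and BM-MSC, at an adjusted p under 0.05 (Benjamini-Hochberg). It called 6.92% between EA-ADSC and AD-MSC and 6.08% between AD-MSC and BM-MSC. Of the 8 genes chosen by function, 0 were called in the first comparison, 2 in the second, both lower in EA-ADSC, and 0 in the third. At an unadjusted p under 0.05 limma counted 3, 3 and 1 of them, against 3565, 6476 and 6443 of all 30559 probe sets. Groups did not overlap for 3, 3 and 1 of the 8, against 18.4%, 23.5% and 25.6% of all probe sets in the same comparisons. The median log2 difference over the 8 was -0.52 for EA-ADSC minus BM-MSC, -0.84 for EA-ADSC minus AD-MSC and 0.40 for AD-MSC minus BM-MSC, beside 0.01, -0.02 and 0.04 over all probe sets. The comparisons share arrays, so their counts are not independent.

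The enzymes that remove superoxide and peroxide held both calls. CAT (probe set 14969419) was at 6.15, 6.00 and 6.14 in EA-ADSC, 9.28, 7.74 and 7.86 in AD-MSC and 7.34, 7.38 and 7.67 in BM-MSC. The 3 groups did not overlap in any pair, and the EA-ADSC arrays lay close together. CAT fell in EA-ADSC relative to AD-MSC, at 6.10 ± 0.084 against 8.29 ± 0.85 (SD, n = 3 each), a 4.58-fold difference (log2 -2.20, SE 0.36, limma adjusted p = 0.00994). It kept this call without AD-MSC replicate 1 (log2 -1.70, limma adjusted p = 0.00166).

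Relative to BM-MSC, at 7.46 ± 0.18 (SD, n = 3), CAT was 2.58-fold lower in EA-ADSC (log2 -1.37, SE 0.36), which did not pass the adjustment (limma adjusted p = 0.156, unadjusted p = 0.00478). This result turned on the arrays in the fit. Without AD-MSC replicate 1, an array of neither group that enters the shared estimate of the spread, the same difference had a limma adjusted p of 0.00714. Among the 9 fits that each left out 1 array, only this 1 gave a call, and the highest limma adjusted p was 0.351. CAT was also 1.78-fold higher in AD-MSC than in BM-MSC (log2 0.83, 95% confidence interval 0.0036 to 1.65, limma adjusted p = 0.236). That log2 difference was 0.34 (limma adjusted p = 0.222) without AD-MSC replicate 1.

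GPX3 (probe set 14985179) was at 4.33, 4.65 and 4.61 in EA-ADSC, 9.08, 7.74 and 7.68 in AD-MSC and 8.33, 7.46 and 5.75 in BM-MSC. The EA-ADSC arrays were low and close together, and none of the other 6 arrays came down to them. GPX3 fell in EA-ADSC relative to AD-MSC, at 4.53 ± 0.17 against 8.17 ± 0.79 (SD, n = 3 each), a 12.4-fold difference in the deposited values (log2 -3.64, SE 0.62, limma adjusted p = 0.0116). The call held without AD-MSC replicate 1 (log2 -3.18, limma adjusted p = 0.0328). The EA-ADSC mean lay just under the median of all probe sets and arrays, and detection was not judged, so the fold holds for the deposited values only.

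Relative to BM-MSC, at 7.18 ± 1.31 (SD, n = 3), GPX3 was 6.28-fold lower in EA-ADSC (log2 -2.65, SE 0.62) and did not pass the adjustment (limma adjusted p = 0.112, unadjusted p = 0.00237). BM-MSC replicate 3 was the low array of its group, and without it the difference was -3.37 (limma adjusted p = 0.0348). Of the 9 fits that each left out 1 array, only this 1 gave a call. The difference ran from -3.37 to -2.08 over these fits, with limma adjusted p-values of 0.0348 to 0.296. AD-MSC and BM-MSC overlapped in GPX3, with a log2 difference of 0.99 (95% confidence interval -0.43 to 2.40, limma adjusted p = 0.41), and of 0.53 without AD-MSC replicate 1.

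SOD2 (probe set 15075712) was at 8.64, 9.05 and 9.34 in EA-ADSC, 11.01, 9.63 and 9.72 in AD-MSC and 9.90, 9.47 and 10.62 in BM-MSC. All 3 EA-ADSC arrays were below the other 6, but the gap to the nearest array was small. The EA-ADSC mean was 2.16-fold lower than in AD-MSC (log2 -1.11, 95% confidence interval -2.07 to -0.15, limma adjusted p = 0.171), with a log2 difference of -0.66 without AD-MSC replicate 1. It was 1.98-fold lower than in BM-MSC (log2 -0.99, 95% confidence interval -1.94 to -0.03, limma adjusted p = 0.412). Neither difference passed the adjustment. SOD2, GPX3 and CAT were the 3 genes of the 8 whose EA-ADSC arrays lay below every array of both other groups. The share of all probe sets with this joint pattern was not counted.

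**Figure D2:**
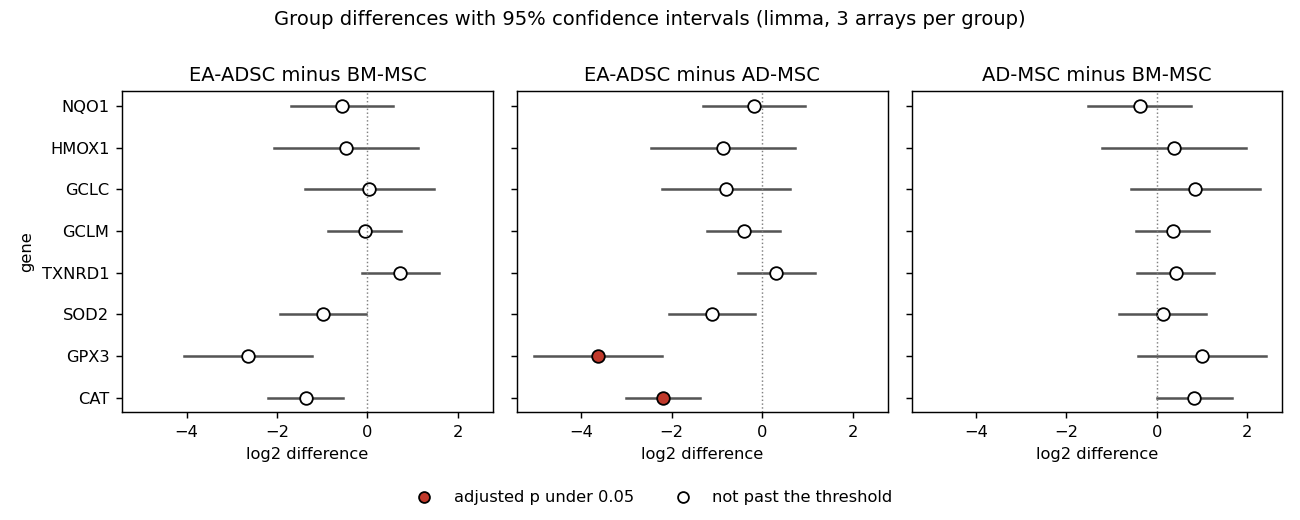
Log2 difference (x axis) of each of the 8 genes chosen by function (y axis) in the 3 comparisons, with 95% confidence intervals from limma on 3 arrays per group. Filled points have an adjusted p under 0.05 over all probe sets. GPX3 and CAT in EA-ADSC minus AD-MSC, at -3.64 and -2.20, are the 2 filled points.

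The NRF2 targets gave no call in any comparison. NQO1 (probe set 15069451), which reduces quinones to hydroquinones, was at 6.76, 7.49 and 7.57 in EA-ADSC, 8.66, 7.19 and 6.51 in AD-MSC and 7.51, 7.87 and 8.12 in BM-MSC. The 3 groups overlapped. Its log2 difference was -0.18 between EA-ADSC and AD-MSC (95% confidence interval -1.31 to 0.95, limma adjusted p = 0.882) and -0.56 between EA-ADSC and BM-MSC (95% confidence interval -1.70 to 0.57, limma adjusted p = 0.783). Without AD-MSC replicate 1 the sign of the first turned, to 0.42.

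HMOX1 (probe set 15058897), the inducible haem oxygenase that frees iron, carbon monoxide and biliverdin from haem, was at 8.18, 7.81 and 7.22 in EA-ADSC, 10.30, 7.01 and 8.52 in AD-MSC and 7.92, 8.27 and 8.48 in BM-MSC. The AD-MSC arrays held both the highest and the lowest of the 9 values. HMOX1 differed by -0.87 between EA-ADSC and AD-MSC (95% confidence interval -2.46 to 0.73, limma adjusted p = 0.533), and by -0.02 without AD-MSC replicate 1. The difference between EA-ADSC and BM-MSC was -0.48 (95% confidence interval -2.07 to 1.11, limma adjusted p = 0.896).

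GCLC and GCLM encode the catalytic and the modifier subunit of glutamate-cysteine ligase, the rate-limiting enzyme of glutathione synthesis, which draws on the same cysteine as CDO1. GCLC (probe set 15032122) was at 4.92, 4.92 and 4.74 in EA-ADSC, 7.42, 5.05 and 4.54 in AD-MSC and 4.92, 4.87 and 4.67 in BM-MSC. Apart from AD-MSC replicate 1, all its values lay close to the median of the array. GCLM (probe set 15088117) was at 5.12, 5.09 and 5.09 in EA-ADSC, 6.29, 5.54 and 4.69 in AD-MSC and 4.93, 5.05 and 5.50 in BM-MSC.

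Both subunits were highest in the same array. EA-ADSC and BM-MSC differed by 0.04 in GCLC (95% confidence interval -1.38 to 1.46, limma adjusted p = 0.995) and by -0.06 in GCLM (95% confidence interval -0.87 to 0.75, limma adjusted p = 0.982). EA-ADSC and AD-MSC differed by -0.81 in GCLC (95% confidence interval -2.23 to 0.61, limma adjusted p = 0.512) and by -0.41 in GCLM (95% confidence interval -1.22 to 0.40, limma adjusted p = 0.566). Without AD-MSC replicate 1 these were 0.07 and -0.02.

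TXNRD1 (probe set 15058686), the cytosolic selenoenzyme that keeps thioredoxin reduced, was at 7.19, 8.22 and 8.14 in EA-ADSC, 8.29, 7.38 and 6.94 in AD-MSC and 7.04, 7.06 and 7.27 in BM-MSC. It was the only one of the 10 genes with its highest group mean in EA-ADSC, at 7.85 ± 0.57, against 7.54 ± 0.69 in AD-MSC and 7.12 ± 0.13 in BM-MSC (SD, n = 3 each). The groups overlapped. Its log2 difference was 0.73 between EA-ADSC and BM-MSC (95% confidence interval -0.12 to 1.57, limma adjusted p = 0.517) and 0.32 between EA-ADSC and AD-MSC (95% confidence interval -0.53 to 1.16, limma adjusted p = 0.685). The difference from AD-MSC was 0.69 without AD-MSC replicate 1.

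Between AD-MSC and BM-MSC the 5 NRF2 targets and SOD2 differed by -0.38 to 0.85 on the log2 scale. Limma's adjusted p-values were 0.716 for NQO1, 0.803 for HMOX1, 0.484 for GCLC, 0.627 for GCLM, 0.576 for TXNRD1 and 0.905 for SOD2. Without AD-MSC replicate 1 the sign of HMOX1 (-0.46), GCLC (-0.02), GCLM (-0.04) and SOD2 (-0.32) turned, so no direction between fat and marrow cells can be read for them. NQO1 was then at -0.99 and TXNRD1 at 0.04.

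**Figure D3:**
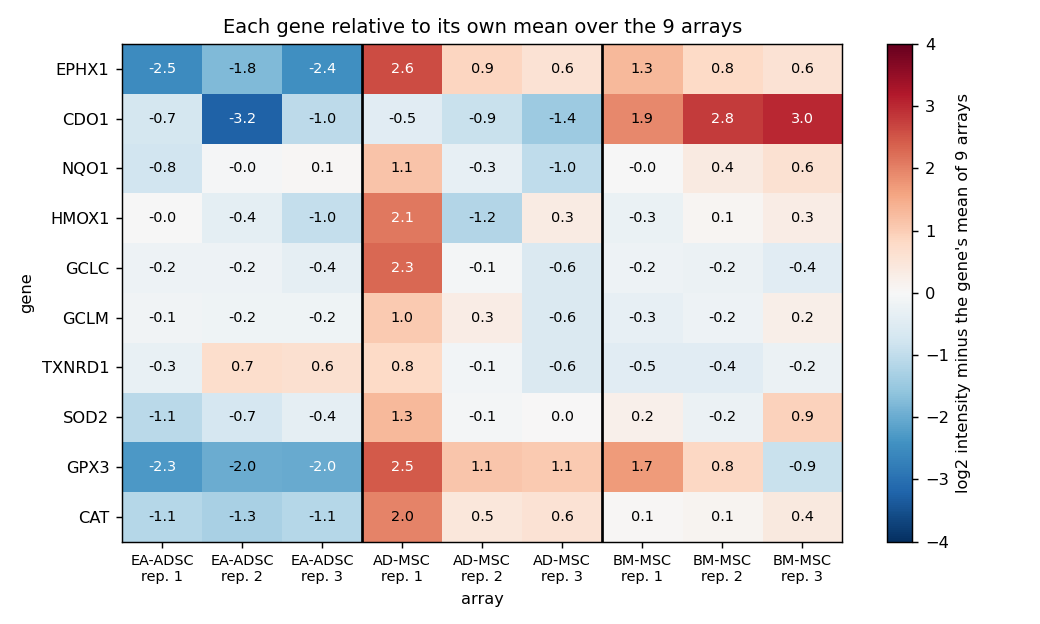
Each of the 10 genes (rows) in each of the 9 arrays (columns) as log2 intensity minus that gene's mean over the 9 arrays. Red is above and blue below the gene's own mean. The column of AD-MSC replicate 1 is red in every gene but CDO1, and all 3 EA-ADSC arrays lie below the gene's mean in every gene but NQO1 and TXNRD1.

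AD-MSC replicate 1 exceeded the mean of the other two AD-MSC arrays by 0.71 (CDO1) to 2.62 (GCLC) on the log2 scale. The excess was at least 2-fold in 9 of the 10 genes, against 2.82% of all probe sets in the same, upward direction. Its median was 1.42 over the 10 genes and 0.01 over all probe sets. The largest excesses were those of GCLC (6.17-fold), HMOX1 (5.80-fold), EPHX1 (3.70-fold) and NQO1 (3.50-fold). These are values of 1 array, chosen after it was seen to be high, and there is no replicate of it.

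Other NRF2-induced genes were read in the same array. Of 21 measured genes of that list, 17 were above the mean of the other 2 AD-MSC arrays, with a median excess of 0.46 against 0.01 over all probe sets. The excess was at least 2-fold in 5 of the 21, against 2.82% of all probe sets. In 10 (47.6%) of the 21 AD-MSC replicate 1 was the highest of all 9 arrays, against 16.1% of all probe sets. SLC7A11, the cystine importer that feeds glutathione synthesis, was at 8.94 in AD-MSC replicate 1 and at 6.45 and 5.78 in the other two. PIR, an iron-binding protein induced by NRF2, was at 10.70 against 7.99 and 7.98. UGDH went the other way, by -1.48. Of the 329 measured genes in 12 related lists together the median excess was 0.03, and 41.0% were highest of the group in this array, against 36.1% of all probe sets. By list that share ran from 5 of 28 selenoprotein genes and 4 of 22 genes of NADPH supply to 9 of 17 NRF2 regulators, 20 of 37 glutathione genes, 14 of 24 NF-kB targets and 14 of 21 other NRF2-induced genes. Some genes stand in more than 1 of these lists. Its adipocyte markers averaged 5.26, the lowest of the 3 AD-MSC arrays, at 6.20 and 5.82 in the other two. What set this array apart was not tested.

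**Figure D4:**
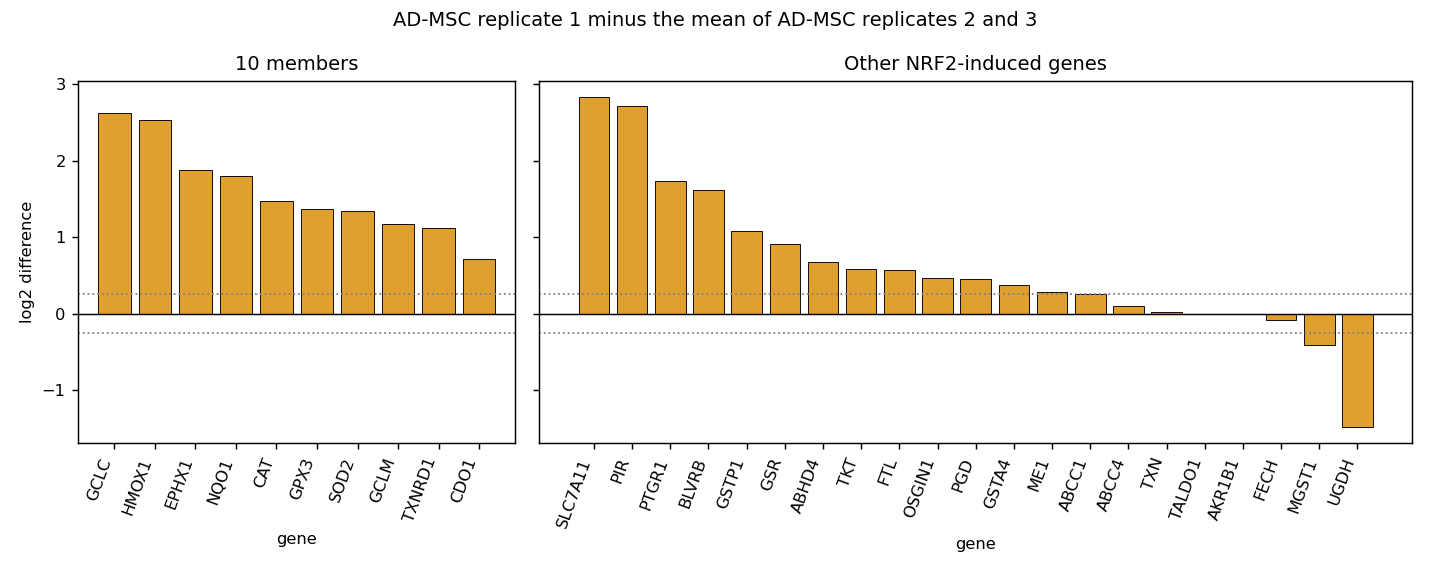
AD-MSC replicate 1 minus the mean of AD-MSC replicates 2 and 3 on the log2 scale (y axis) for the 10 genes (left) and the 21 measured other NRF2-induced genes (right). Dotted lines at 0.26 above and below 0 mark the median absolute difference over all probe sets. All 10 bars on the left are above the upper line, from 0.71 to 2.62.

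The genes around the 10 were read in 12 lists of 329 measured genes, the 10 themselves left out. Some genes, such as TKT and MSRB1, stand in more than 1 list, so the counts by list are not independent. Limma called 8 of them (2.43%) between EA-ADSC and BM-MSC, 6 higher and 2 lower in EA-ADSC. It called 52 (15.8%) between EA-ADSC and AD-MSC, 23 higher and 29 lower, and 43 (13.1%) between AD-MSC and BM-MSC, 22 higher and 21 lower in AD-MSC. Taken as 1 probe set per gene, 1.26%, 9.14% and 8.19% of all named genes were called. For the unadjusted counts given with the lists below, limma's numbers over all 30559 probe sets were 3565, 6476 and 6443 in the same order. With other processing the 8 became 17 with array weights (7 higher, 10 lower), 13 with 1 row per gene (6 higher, 7 lower) and 12 with dim probe sets left out (6 higher, 6 lower), so the balance of directions is not settled. The 52 became 26 (11 higher, 15 lower) in a fit of the 2 groups alone. The 3 counts were 7, 46 and 43 without AD-MSC replicate 1. The count for EA-ADSC against BM-MSC changed most with the 6 arrays of these groups: it was 5, 3 and 2 without EA-ADSC replicates 1, 2 and 3 and 2, 2 and 3 without BM-MSC replicates 1, 2 and 3. That for EA-ADSC against AD-MSC was 31 without EA-ADSC replicate 2 and 31 without replicate 3. That for AD-MSC against BM-MSC was 22, 22 and 25 without BM-MSC replicates 1, 2 and 3. Median log2 differences of the 12 lists ran from -0.06 (peroxisome) to 0.21 (NADPH supply) for EA-ADSC minus BM-MSC, from -0.28 (other NRF2-induced genes) to 0.13 (NF-kB targets) for EA-ADSC minus AD-MSC, and from -0.16 (NF-kB targets) to 0.27 (NADPH supply) for AD-MSC minus BM-MSC, beside 0.01, -0.02 and 0.04 over all probe sets. The called genes named below kept their call in all 17 settings run without the 2-fold criterion. BLVRA in AD-MSC relative to BM-MSC, at 1.96-fold, does not reach that criterion. As with GPX3, a difference holds for the deposited values only where a group mean lies under the median of 4.62, which was so for PTGR1, ALDH1A1 and PTX3 in EA-ADSC, PAPSS2 in AD-MSC, and ABCB1 and ALDH1A1 in BM-MSC.

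**Figure D5:**
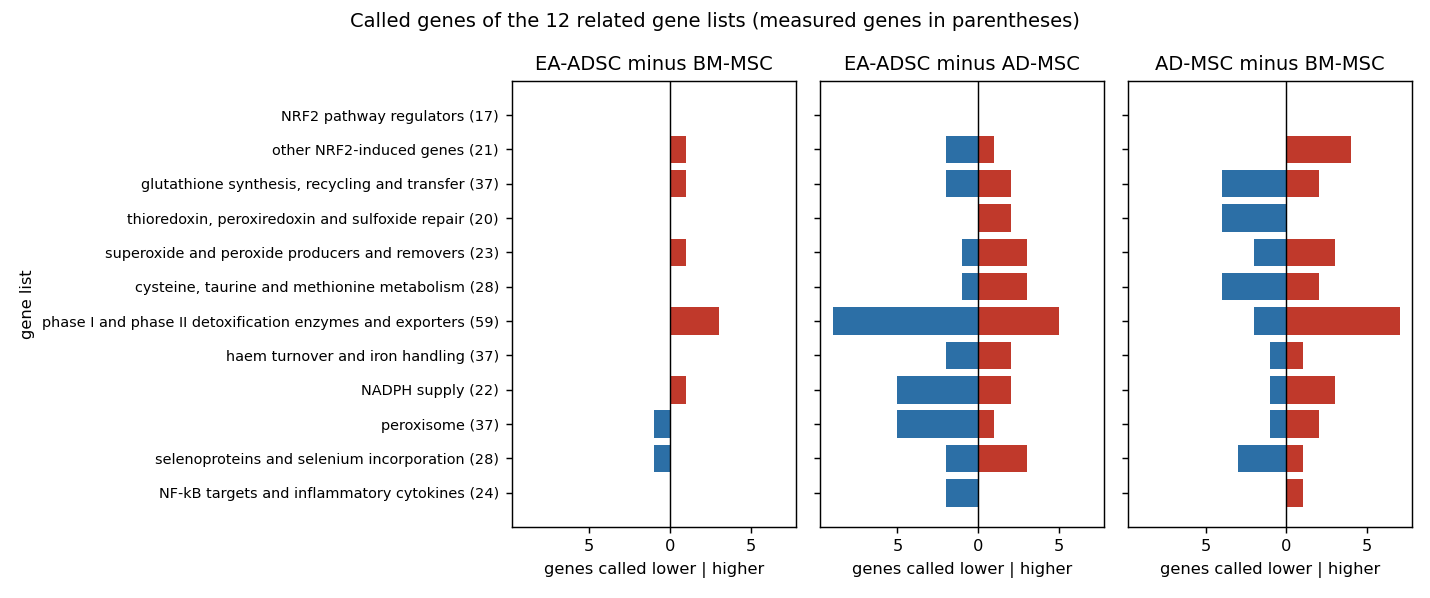
Number of genes called lower (blue, left) and higher (red, right) by limma at an adjusted p under 0.05 (x axis) in each of the 12 lists (y axis, measured genes in parentheses) for the 3 comparisons. No NRF2 pathway regulator was called in any comparison, and phase I and phase II detoxification has the most calls in EA-ADSC minus AD-MSC, 5 higher and 9 lower.

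Of 17 NRF2 pathway regulators limma called 0 in each comparison, with 2, 3 and 1 at an unadjusted p under 0.05. NFE2L2, which encodes NRF2, averaged 7.66 ± 0.18 in AD-MSC and 8.07 ± 0.10 in BM-MSC (SD, n = 3 each, limma adjusted p = 0.198). Of the 21 other NRF2-induced genes 1 rose and 0 fell in EA-ADSC relative to BM-MSC, 1 rose and 2 fell relative to AD-MSC, and 4 rose and 0 fell in AD-MSC relative to BM-MSC. PTGR1, a reductase of prostaglandins and unsaturated aldehydes, averaged 4.31 ± 0.49 in EA-ADSC and 7.45 ± 1.06 in AD-MSC (SD, n = 3 each), a fall of 8.82-fold (limma adjusted p = 0.00694). TKT, of the pentose phosphate path that supplies NADPH, rose 3.03-fold in AD-MSC relative to BM-MSC (limma adjusted p = 0.00303).

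In glutathione synthesis, recycling and transfer 1 of 37 genes rose in EA-ADSC relative to BM-MSC, 2 rose and 2 fell relative to AD-MSC, and 2 rose and 4 fell in AD-MSC relative to BM-MSC. GSTK1, a glutathione transferase, was at 6.94, 7.43 and 7.14 in EA-ADSC, 9.30, 8.43 and 9.38 in AD-MSC and 6.90, 5.92 and 6.77 in BM-MSC. It was highest in the fat-derived cells, 3.65-fold lower in EA-ADSC than there (limma adjusted p = 0.0131) and 5.71-fold higher in AD-MSC than in BM-MSC (limma adjusted p = 0.00388). GLO1, which removes methylglyoxal, fell 2.04-fold in AD-MSC relative to BM-MSC (limma adjusted p = 0.00449).

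The called genes of thioredoxin, peroxiredoxin and sulfoxide repair lay opposite to CAT, low in AD-MSC. Of the 20 measured genes limma called 0 between EA-ADSC and BM-MSC (4 at an unadjusted p under 0.05), 2 rose in EA-ADSC relative to AD-MSC, and 4 fell in AD-MSC relative to BM-MSC. PRDX2, a cytosolic peroxidase that takes its electrons from thioredoxin, was at 11.07, 11.17 and 11.08 in EA-ADSC, 8.19, 8.17 and 7.62 in AD-MSC and 11.08, 11.39 and 11.49 in BM-MSC. The fat-derived cells stood apart as the low group. PRDX2 rose in EA-ADSC relative to AD-MSC (log2 3.11, limma adjusted p = 0.000124) and fell in AD-MSC relative to BM-MSC (log2 -3.33, limma adjusted p = 8.63e-05). TXNDC5, a disulfide isomerase of the endoplasmic reticulum, rose 2.99-fold in EA-ADSC relative to AD-MSC (limma adjusted p = 0.000982), and MSRB1, a selenoenzyme that repairs oxidised methionine, fell 4.61-fold in AD-MSC relative to BM-MSC (limma adjusted p = 0.00318).

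Among 23 producers and removers of superoxide and peroxide 1 rose in EA-ADSC relative to BM-MSC, 3 rose and 1 fell relative to AD-MSC, and 3 rose and 2 fell in AD-MSC relative to BM-MSC. PXDN, a peroxidase that crosslinks collagen IV, averaged 7.37 ± 0.054 in EA-ADSC and 5.02 ± 0.32 in AD-MSC (SD, n = 3 each), a 5.09-fold rise (limma adjusted p = 0.000243). MAOA, a mitochondrial amine oxidase that gives off hydrogen peroxide, fell 3.54-fold in EA-ADSC relative to AD-MSC (limma adjusted p = 0.0124) and rose 4.86-fold in AD-MSC relative to BM-MSC (limma adjusted p = 0.00512). Of 37 peroxisome genes, the compartment of catalase, 0 rose and 1 fell in EA-ADSC relative to BM-MSC, 1 rose and 5 fell relative to AD-MSC, and 2 rose and 1 fell in AD-MSC relative to BM-MSC. PXMP2, a channel of the peroxisomal membrane, averaged 6.30 ± 0.57 in EA-ADSC and 8.68 ± 0.24 in AD-MSC (SD, n = 3 each), a 5.18-fold fall (limma adjusted p = 0.00197).

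Of 28 genes of cysteine, taurine and methionine metabolism, the path of CDO1, limma called 0 between EA-ADSC and BM-MSC (5 at an unadjusted p under 0.05), 3 rose and 1 fell in EA-ADSC relative to AD-MSC, and 2 rose and 4 fell in AD-MSC relative to BM-MSC. PAPSS2, which makes the activated sulfate PAPS, was at 8.03, 7.68 and 8.11 in EA-ADSC, 4.32, 4.66 and 4.45 in AD-MSC and 8.10, 7.77 and 7.68 in BM-MSC. It was low in the fat-derived cells alone, unlike CDO1, which was low in EA-ADSC too. PAPSS2 rose 11.0-fold in EA-ADSC relative to AD-MSC (limma adjusted p = 6.25e-05) and fell 10.4-fold in AD-MSC relative to BM-MSC (limma adjusted p = 8.39e-05). SQOR, which oxidises hydrogen sulfide in mitochondria, fell 2.26-fold in AD-MSC relative to BM-MSC (limma adjusted p = 0.0092).

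Phase I and phase II detoxification, the list around EPHX1, had 59 measured genes, of which 3 rose and 0 fell in EA-ADSC relative to BM-MSC, 5 rose and 9 fell relative to AD-MSC, and 7 rose and 2 fell in AD-MSC relative to BM-MSC. ABCB1, the drug exporter P-glycoprotein, was at 6.84, 8.10 and 7.33 in EA-ADSC, 5.21, 5.22 and 4.51 in AD-MSC and 4.04, 4.34 and 4.08 in BM-MSC. It was high in all EA-ADSC arrays, opposite to EPHX1, and rose relative to BM-MSC (log2 3.27, limma adjusted p = 0.00363) and AD-MSC (log2 2.44, limma adjusted p = 0.00377). ALDH1A1, a retinal and aldehyde dehydrogenase, was at 4.36, 3.35 and 3.63 in EA-ADSC, 10.90, 8.58 and 10.64 in AD-MSC and 5.85, 3.69 and 4.11 in BM-MSC. It rose in AD-MSC relative to BM-MSC (log2 5.49, limma adjusted p = 0.00389) and fell in EA-ADSC relative to AD-MSC (log2 -6.26, limma adjusted p = 0.00207).

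Of 28 genes of selenoproteins and selenium incorporation, to which GPX3 and TXNRD1 belong by function, 0 rose and 1 fell in EA-ADSC relative to BM-MSC, 3 rose and 2 fell relative to AD-MSC, and 1 rose and 3 fell in AD-MSC relative to BM-MSC. SELENBP1, a selenium-binding methanethiol oxidase, was at 6.11, 6.12 and 5.81 in EA-ADSC, 7.94, 7.84 and 7.81 in AD-MSC and 8.01, 7.73 and 8.30 in BM-MSC. Like GPX3 and CAT it was low in all EA-ADSC arrays, and here both falls were called, by 2.00 on the log2 scale relative to BM-MSC (limma adjusted p = 0.00159) and by 1.85 relative to AD-MSC (limma adjusted p = 0.000654). SELENOP, the plasma selenium carrier, averaged 5.33 ± 1.22 in EA-ADSC and 9.56 ± 1.16 in AD-MSC (SD, n = 3 each), an 18.7-fold fall (limma adjusted p = 0.00926).

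Of 37 genes of haem turnover and iron handling limma called 0 between EA-ADSC and BM-MSC (7 at an unadjusted p under 0.05), 2 rose and 2 fell in EA-ADSC relative to AD-MSC, and 1 rose and 1 fell in AD-MSC relative to BM-MSC. BLVRA, which reduces biliverdin made by haem oxygenase, rose 1.96-fold in AD-MSC relative to BM-MSC (limma adjusted p = 0.0048). NADPH supply had the largest share of calls between EA-ADSC and AD-MSC of the 12 lists. Of its 22 genes 1 rose in EA-ADSC relative to BM-MSC, 2 rose and 5 fell relative to AD-MSC, and 3 rose and 1 fell in AD-MSC relative to BM-MSC, among them IDH1, a cytosolic isocitrate dehydrogenase, with a 2.36-fold rise (limma adjusted p = 0.000581). Of 24 NF-kB targets and inflammatory cytokines, a path that also induces SOD2, limma called 0 between EA-ADSC and BM-MSC (5 at an unadjusted p under 0.05), 2 fell in EA-ADSC relative to AD-MSC and 1 rose in AD-MSC relative to BM-MSC. PTX3, a secreted pattern-recognition protein, was the gene of this list called in both, at 3.88 ± 1.30 in EA-ADSC, 11.68 ± 0.26 in AD-MSC and 4.87 ± 0.64 in BM-MSC (SD, n = 3 each, limma adjusted p = 0.000281 and 0.000577).

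Likeness of pattern was measured as Pearson's r over the 9 arrays against 16660 other genes, as a ranking without a test, since the points share 3 groups and the normalization. Nearest to EPHX1 were MORC4 (0.976), NIPBL (0.962), SRSF5 (0.959) and the aldehyde dehydrogenase gene ALDH9A1 (0.958). Nearest to CDO1 were EI24 (0.971), RBL2 (0.965), EYA4 (0.956) and LOC100067485 (0.953). No gene stood nearest to both. MORC4 returned as the second nearest gene to GPX3 (0.948), after RPS12 (0.956), and CAT had NSRP1 (0.979) and BDH2 (0.971) as nearest. Nearest to GCLC were EGF (0.989) and KLHL14 (0.985), both with group means under the median of all values. In EA-ADSC, AD-MSC and BM-MSC these means were 3.73, 3.91 and 3.72 for EGF and 4.10, 4.15 and 4.10 for KLHL14. Pearson's r takes no account of the size of a difference, and RPS12 had means of 12.52, 12.64 and 12.61. SOD2 was nearest to SLC16A7 (0.964) and BBS2 (0.947), HMOX1 to PGAM2 (0.962) and ICAM4 (0.958), and GCLM to IL1R2 (0.954) and ZNF174 (0.937). TXNRD1 was nearest to FBXO8 (0.960) and MIR21 (0.945), and NQO1 to PRR9 (0.914) and BMPR2 (0.910).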

How the data were processed

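Each probe set has 1 normalized log2 intensity per array, as the authors deposited it. Software named in the submitters' processing notes was Affymetrix Expression Console, Partek 6.16.0419 and version 3 of the Transcriptome Analysis Console. Summarization, normalization and genome build were not given in the sources used here. No further scaling was applied. With limma 3.58.1, 1 mean per group was fitted over the 9 arrays and 30559 probe sets (R 4.3.3; lmFit, eBayes, 6 residual degrees of freedom), two-sided, with Benjamini-Hochberg adjustment over all probe sets and a call at an adjusted p under 0.05. The fit was tested on simulated data. Gene names are those of the platform annotation, 1 probe set per gene, the one of highest mean. The genes and lists were chosen with earlier results of these data known. Named were all 10 genes, from each list and comparison up to 4 called genes by smallest adjusted p (where none was called, up to 2 by largest moderated statistic), and the nearest genes by Pearson's r. From these, list genes that kept their call in all settings but the 2-fold criterion and best show a list were printed. Replicate numbers name different horses in bone marrow and blood and none in fat, so arrays were not paired. Between groups, residuals of same-numbered arrays correlated by -0.02 to 0.12 and those of differently numbered arrays by -0.12 to 0.04. Alternatives were other normalizations, a filter on dim probe sets, limma-trend, array weights, a replicate block, 2 groups alone, 1 row per gene, a 2-fold criterion and leaving out each array. Figures were drawn with matplotlib 3.10.9 (Python 3.11.15). No sequences are given.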

Additional observations from a re-analysis of the deposited data

How the results depend on the processing

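The falls of GPX3 and CAT in EA-ADSC relative to AD-MSC kept their call in every setting run, with log2 differences of -3.88 to -3.18 and -2.47 to -1.70 and limma adjusted p-values of 0.00356 to 0.0414 and 0.00166 to 0.0403 when arrays were left out in turn. CAT in EA-ADSC relative to BM-MSC gained a call with array weights (limma adjusted p = 0.0386) and with the groups compared alone (0.0189). When arrays were left out in turn, 1 of 9 fits gave it a call, with limma adjusted p-values of 0.00714 to 0.351. NQO1 in EA-ADSC minus AD-MSC turned to 0.12 with array weights. Leaving out 1 array gave for AD-MSC minus BM-MSC log2 differences of -0.024 to 1.41 (GCLC), -0.041 to 0.76 (GCLM), -0.46 to 1.18 (HMOX1), -0.99 to 0.086 (NQO1) and -0.32 to 0.43 (SOD2). It gave -1.37 to 0.067 (GCLC) and -0.65 to 0.42 (NQO1) for EA-ADSC minus AD-MSC, and -0.033 to 0.10 (GCLC) and -0.17 to 0.11 (GCLM) for EA-ADSC minus BM-MSC. The descriptive differences ran from -3.36 to -2.93 (EA-ADSC minus BM-MSC) and -3.98 to -2.97 (EA-ADSC minus AD-MSC) for EPHX1, and from -4.73 to -3.46 (EA-ADSC minus BM-MSC) and -3.84 to -3.26 (AD-MSC minus BM-MSC) for CDO1.

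The 249 probe sets called between EA-ADSC and BM-MSC became 479 with dim probe sets left out, 744 with array weights, 488 with 1 row per gene and 86 to 384 with 1 array left out. The 2116 between EA-ADSC and AD-MSC became 1029 with the 2 groups alone, 1192 at no less than 2-fold and 1176 to 2037 with 1 array left out. The 1857 between AD-MSC and BM-MSC became 1037 at no less than 2-fold and 849 to 2012 with 1 array left out. With the replicate block the 3 counts were 263, 1625 and 1492, and 5 genes of the related lists in place of 8 were called between EA-ADSC and BM-MSC. The causes were not tested.

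The number of arrays limits the precision: the median standard error of a difference was 0.19 on the log2 scale, and all 8 tested genes had a larger one. Detection was not judged, and EPHX1 and GPX3 in EA-ADSC, GCLC and GCLM lay near the median of all values. In 37.3% of probe sets at least 2 arrays held an identical value, GCLC among them.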
